A study of Mus musculus with 18 samples.

Results

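The regions described here are stretches of open chromatin that were found in stem cells of 16-week-old mice, with or without chemotherapy, and in no list from 8-week-old mice. They were chosen by presence in peak lists. A region of the vehicle HSC list had to overlap the 5-fluorouracil HSC list by at least 1 bp and to overlap none of the 4 8-week lists. This rule kept 10377 of the 80100 vehicle regions, and the 6 lists together held 94178 merged regions. They are called 16-week-only regions below.

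Open chromatin was tagged with the Tn5 transposase (ATAC-seq) in 18 samples of mouse haematopoietic stem cells (HSC) and of cells labelled HPC, the progenitors that HSC give rise to. At 8 weeks of age there were 2 samples of wild-type HSC, 2 of HSC labelled Kmt2c f/f; Vav-Cre with genotype Kmt2c -/-, 4 of wild-type HPC and 2 of Kmt2c -/- HPC. At 16 weeks there were 4 samples of wild-type HSC from mice given PBS, the vehicle, and 4 from mice given 5-fluorouracil at 150 mg/kg, in both cases in 3 injections every 3 weeks. Vav-Cre deletes a floxed gene in blood-forming cells, so the knockout is not restricted to HSC. The labels give no sort markers, no sex and no statement that samples of a group came from separate animals, and they name RNA as the molecule, which was not resolved.

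An accessible region is DNA free of tightly packed nucleosomes, where transcription factors can bind. Promoters of genes in broad use tend to be open in most cell types, while enhancers, the distal switches that tune a gene to a cell type or state, open and close with the state of the cell. HSC rest for most of their life, and 5-fluorouracil kills the dividing cells below them, which drives HSC into cycle to rebuild the blood.

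Each group had a single list that pools its samples, so nothing was tested across samples and no p-value is given. Intervals are 95% Wilson intervals over regions and cover counting error only, and neighbouring regions are not independent. The 2 16-week lists were the longest, with 80100 regions for vehicle and 71363 for 5-fluorouracil against 40073 to 65832 at 8 weeks. Their median −log10 p was also the highest, at 151 and 148 against 54.7 to 83.8. Read depth was not given. Age, injection, the length of a list and any difference in library preparation go together in this design and cannot be told apart.

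Starts of genes were among the 16-week-only regions, and a few promoters are printed here because they are among the strongest of those starts or stand for a gene family described below. The sequences are the 250 bases before the start in the RefSeq promoter table of GRCm38.p6 (mm10), written 5′ to 3′ on the strand of the gene, and all of these bases lie inside the 16-week-only region. Capitals mark matches, on either strand, to the motifs searched, and neighbouring matches run together. The motifs were CCGGAAG for ETS factors, TGTGGT for RUNX, AGATAA for GATA factors, TGANTCA for AP-1, CAGCTG for an E-box, TGACGTCA for CRE, GCATGCGC for NRF1, GGGCGG for the GC box, CCAAT for the box of that name, GAAANNGAA for IRF and AGGGGGC for the CTCF core. The GC box and CTCF core can share bases.
Mylk3 (chr8:85381042-85381291, minus strand): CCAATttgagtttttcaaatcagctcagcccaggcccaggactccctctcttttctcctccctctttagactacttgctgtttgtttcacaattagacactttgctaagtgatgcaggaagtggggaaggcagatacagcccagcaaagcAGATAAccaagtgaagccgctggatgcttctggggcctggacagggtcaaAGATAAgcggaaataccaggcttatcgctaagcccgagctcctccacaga
Cfap47 (chrX:79517352-79517601, minus strand): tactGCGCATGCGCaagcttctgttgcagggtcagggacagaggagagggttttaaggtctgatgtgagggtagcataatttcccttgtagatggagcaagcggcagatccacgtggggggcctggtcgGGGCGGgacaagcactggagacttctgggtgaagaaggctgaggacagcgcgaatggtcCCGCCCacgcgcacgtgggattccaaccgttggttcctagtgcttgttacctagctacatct
Tlr6 (chr5:64959167-64959416, minus strand): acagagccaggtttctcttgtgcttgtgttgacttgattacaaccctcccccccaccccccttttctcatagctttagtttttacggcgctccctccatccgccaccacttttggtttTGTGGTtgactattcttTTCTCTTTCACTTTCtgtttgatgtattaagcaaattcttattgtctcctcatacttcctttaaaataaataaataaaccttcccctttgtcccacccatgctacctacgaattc
Ppp1r37 (chr7:19562399-19562648, minus strand): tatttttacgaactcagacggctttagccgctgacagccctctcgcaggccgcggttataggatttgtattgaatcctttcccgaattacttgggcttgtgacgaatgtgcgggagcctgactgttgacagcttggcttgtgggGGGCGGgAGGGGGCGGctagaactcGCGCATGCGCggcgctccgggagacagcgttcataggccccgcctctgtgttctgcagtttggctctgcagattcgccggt
Ptk7 (chr17:46629505-46629754, minus strand): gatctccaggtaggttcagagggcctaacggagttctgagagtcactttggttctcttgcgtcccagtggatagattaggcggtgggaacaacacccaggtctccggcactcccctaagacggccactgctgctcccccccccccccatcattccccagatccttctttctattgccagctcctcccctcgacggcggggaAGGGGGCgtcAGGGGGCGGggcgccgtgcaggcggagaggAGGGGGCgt
Msx3 (chr7:140049089-140049338, minus strand): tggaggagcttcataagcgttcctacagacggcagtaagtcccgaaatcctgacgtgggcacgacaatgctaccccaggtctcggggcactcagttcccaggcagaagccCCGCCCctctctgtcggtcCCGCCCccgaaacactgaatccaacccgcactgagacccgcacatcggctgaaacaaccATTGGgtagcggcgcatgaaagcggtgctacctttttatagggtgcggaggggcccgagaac
The Mylk3 sequence held 2 GATA matches and 1 CCAAT box, and that of Tlr6 held 1 RUNX and 2 overlapping IRF matches. Cfap47 and Ppp1r37 each held 2 NRF1 matches, which are 1 palindrome read on both strands, and 2 GC boxes. Ptk7 held 3 CTCF core matches and 1 GC box, and Msx3 held 2 GC boxes and 1 CCAAT box. A match is a run of letters and not a measured binding site.

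The 10377 regions were 13.0% of the vehicle list and 15.5% of the 67107 vehicle regions that were also in the 5-fluorouracil list. These shares are fixed by the rule and serve as the background for the shares near genes below. Of the regions in both 16-week lists, 30332 were in all 4 8-week lists, and 7856, 9279 and 9263 were in 1, 2 and 3 of them. The 8-week lists were then taken in turn. Lacking in the wild-type HSC list were 29115 regions, and 19222 of these were lacking in the knockout HSC list too. Adding the wild-type HPC list left 11094, and adding the knockout HPC list left 10377. Regions of both 16-week lists found in a single 8-week list were most often in that of wild-type HPC, with 3942, the longest 8-week list. The other counts were 2506 for knockout HSC, 717 for knockout HPC and 691 for wild-type HSC. A further 8227 vehicle regions were in no other list at all.

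**Figure D1:**
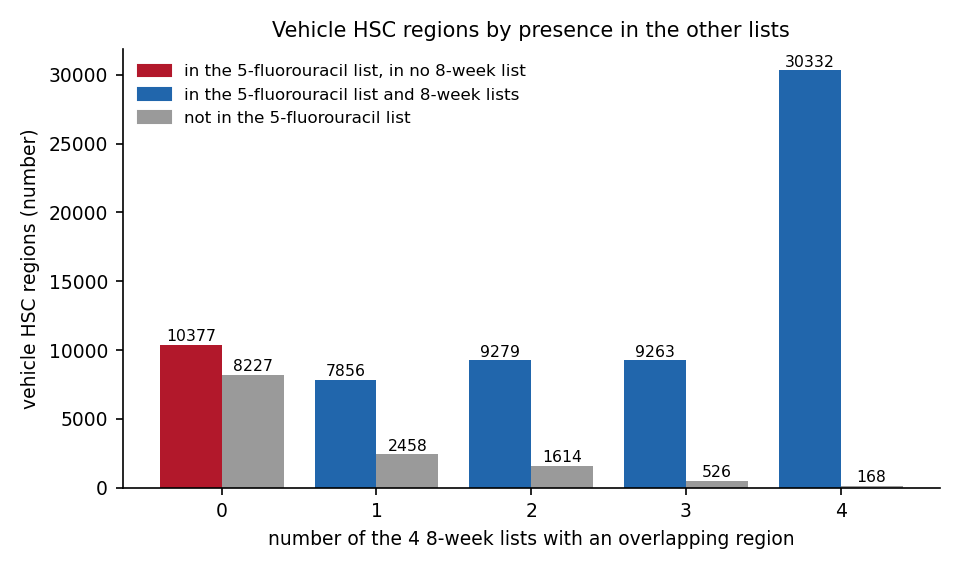
Number of vehicle HSC regions (vertical axis) by the number of 8-week lists with an overlapping region (horizontal axis), split by presence in the 5-fluorouracil list. The red bar holds the 10377 regions described here, and the tallest bar holds the 30332 regions found in all 6 lists.

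Most 16-week-only regions were narrow and weak, in both of the lists that define them. Their median width was 506 bp (150 to 2794 bp) against 825 bp for regions in all 6 lists. Fold enrichment is the authors' ratio of signal at the summit to local background, taken here as the highest among a region's merged peaks. Its median was 6.58 in the vehicle list (1.37 to 26.2) and 5.99 in the 5-fluorouracil list (1.35 to 30.0). Each list has its own background, so 2 fold enrichments of a region are given side by side and not as a change. Ranked by −log10 p within the vehicle list, the median region stood at the 25.1st percentile, with the middle 50% of regions between 15.3 and 36.1. Regions in all 6 lists had a median percentile of 80.2, and those in 1 to 3 8-week lists 45.2. In the 5-fluorouracil list the median percentile was 19.3, and 7368 regions (71.0%) ranked higher in the vehicle list than in the 5-fluorouracil list. Only 309 stood above the median of both lists, and 2 above the 75th percentile of both.

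Overlap of both 16-week lists was required by the rule, so the closeness of the 2 peaks is a description of the choice. The summits of a region lay a median of 7 bp apart, and 92.2% lay within 50 bp of each other. The ranks in the 2 lists had a Spearman correlation of 0.70 over the 10377 regions. This is a description only, since all regions of a list come from the same pooled samples. The overlap covered at least 50% of the shorter region for 10363 of them. In 141 cases the 5-fluorouracil partner itself reached into an 8-week region.

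The share of 16-week-only regions among those in both 16-week lists fell with strength in the vehicle list. It was 65.3% in the weakest 10% of the vehicle list, 44.7% between the 20th and 30th percentile, 16.8% between the 40th and 50th and 1.59% between the 60th and 70th. Of the 8010 regions in both lists among the strongest 10% there were 0. Strength belongs to the lists that the rule used, so these values describe the choice and were not tested. They matter for what follows, because regions of like strength are the fitting comparison. When every list was shortened to its 40073 strongest regions, the length of the shortest, 1573 vehicle regions met the rule, 3.93% of those kept.

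**Figure D2:**
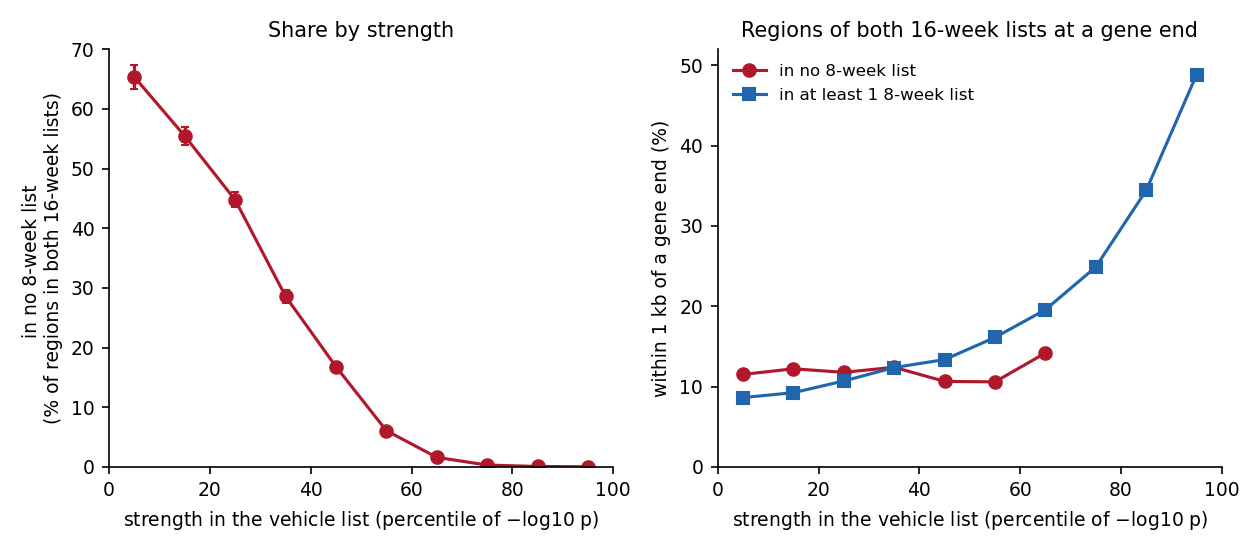
Left, share of 16-week-only regions among regions of both 16-week lists (percent, with 95% Wilson intervals) by percentile of −log10 p in the vehicle list. Right, percent of regions within 1 kb of a gene end for 16-week-only regions (red, strength steps with at least 100 of them) and for regions also in an 8-week list (blue). The red share on the right stays between 10.6% and 14.2% while the blue share climbs from 8.63% to 48.8%.

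Few of the regions sat on the edge of the rule. There were 8 with an 8-week region within 50 bp, and 2 regions outside the set overlapped 8-week regions by at most 50 bp. The 8 had a median fold enrichment of 4.65 and the 2 one of 6.50. Another 2 overlapped their 5-fluorouracil partner by at most 50 bp, and 1 vehicle-only region lay within 50 bp of a 5-fluorouracil region. The median distance to the nearest 8-week region was 4.91 kb, with 17.1% within 1 kb and 31.9% beyond 10 kb.

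Position relative to genes was not used by the rule. Both annotated ends of every protein-coding gene, the start and the far end, were counted, whether or not strand was listed. Such an end lay within 1 kb of 1222 of the 10377 regions, 11.8% (11.2 to 12.4). The share was 13.8% (13.4 to 14.2) for regions in 1 to 3 8-week lists and 32.4% (31.9 to 32.9) for those in all 6 lists. It was 7.74% (7.18 to 8.34) for vehicle-only regions. Once the regions of both 16-week lists that were also in an 8-week list were weighted to the same vehicle strengths, their share at gene ends was 11.1%. The unweighted intervals did not overlap, and the weighted share was close to that of the 16-week-only regions. Inside gene bodies lay 57.8% of them, the same as the weighted share of the others. No protein-coding gene lay within 100 kb of 925 regions, 8.91% (8.38 to 9.48). The share was 4.51% (4.29 to 4.75) for regions in all 6 lists and 7.13% (6.83 to 7.45) for those in 1 to 3 8-week lists. Vehicle-only regions had 10.2% (9.59 to 10.9), and regions of vehicle and an 8-week list but not 5-fluorouracil 9.63% (8.83 to 10.5). Strength was not matched for this share. With every list shortened to 40073 regions, the share at gene ends was 23.3%.

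Chromosome X was the chromosome with the highest share of 16-week-only regions. They made up 336 of its 1753 vehicle regions, 19.2% (17.4 to 21.1), against 13.0% over all chromosomes, and the next highest was 16.3% (15.2 to 17.4) on chromosome 3. Chromosomes 7 and 11 were lowest, at 10.9% and 11.0%. Of the 16-week-only regions 3.24% (2.91 to 3.60) lay on X, against 1.94% of the other regions of both 16-week lists and 1.99% of those weighted to like strength. Vehicle-only regions had a like share on X, 3.04% (2.69 to 3.43), so a high share is not particular to the 16-week-only regions. Regions of vehicle and an 8-week list but not 5-fluorouracil had 1.41% (1.11 to 1.78). X held 2.19% of the vehicle list and 2.17% of the 5-fluorouracil list but 1.70% to 1.85% of the 8-week lists. The sex of the mice was not in the labels, and the part of sex in this was not tested. In all 15 settings tried, which reuse the same peak lists, the share on X stayed above that of all chromosomes, by 3.56 to 10.3 percentage points.

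Genes of the X chromosome with such regions included Kdm6a, a histone H3 lysine 27 demethylase, and Bcor, a corepressor that works with Bcl6 and Polycomb proteins. Near Kdm6a 3 of 4 vehicle regions were 16-week-only, and every 8-week list held 1 region there. The one of highest fold enrichment lay inside the gene at chrX:18254624-18255093, with 13.4 in vehicle and 14.7 after 5-fluorouracil. Bcor had 10 of 33, and the 8-week lists held 11 and 16 regions near it in wild-type and knockout HSC and 25 and 12 in wild-type and knockout HPC. The Bcor regions had lower fold enrichments, between 2.23 and 6.44 in vehicle. The start of Gata1, the master transcription factor of red cells and platelets, lay in another, with 5.23 in vehicle and 5.09 after 5-fluorouracil.

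The 16-week-only regions were spread over 5722 genes, taking for each region the nearest protein-coding gene body within 100 kb, a rule of nearness that says nothing of the gene a region controls. There were 3658 genes with 1 region and 189 with 5 or more. Genes with many regions were long ones. The 31 genes with 8 or more had a median length of 415 kb, against 43.0 kb for genes with a region and 17.2 kb for all protein-coding genes. The counts below therefore stand beside the counts in every list.

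Arid1b, a DNA-binding subunit of the SWI/SNF chromatin remodelling complex, had the most, with 16 of 62 vehicle regions. The 5-fluorouracil list had 58 regions near it, and the 8-week lists 27, 29, 43 and 33, in the order wild-type HSC, knockout HSC, wild-type HPC, knockout HPC, which is kept below. All 16 lay inside the gene, with fold enrichments of 2.38 to 10.1. Pde4d, a cyclic AMP phosphodiesterase, followed with 15 of 76, and its 8-week counts were 36, 33, 59 and 39. Foxp1, a forkhead transcription factor, had 13 of 60, beside 25, 31, 41 and 33. These 3 genes had shares of 25.8%, 19.7% and 21.7%, which the choice of genes by their counts favours. Their counts rest on the assignment to gene bodies, since by the nearest gene end Arid1b had 5, Pde4d 2 and Foxp1 6. With the weakest 25% of every list removed they had 7, 8 and 6.

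Mecom, a zinc finger factor that HSC need to maintain themselves, had 14 of 49 vehicle regions. The other counts were 41 after 5-fluorouracil and 16, 21, 19 and 18 at 8 weeks. The Mecom regions were scattered over the gene and its flanks, 11 of them inside it, rather than gathered at 1 place. The highest fold enrichment in vehicle was at chr3:30066020-30067010, with 13.0 in vehicle and 11.7 after 5-fluorouracil, and its nearest 8-week region was 16317 bp away. A second, at chr3:30239343-30239826, had 10.3 and 14.4. The lowest, at chr3:30506881-30507500 near the upstream start, had 1.89 and 2.01. Beyond the end of the gene, 2 lay over 100 kb from any 8-week region, with 4.47 and 8.07 in vehicle and 9.37 and 9.80 after 5-fluorouracil. With the weakest 25% of every list removed Mecom had 15, and by the nearest gene end it had 6.

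**Figure D3:**
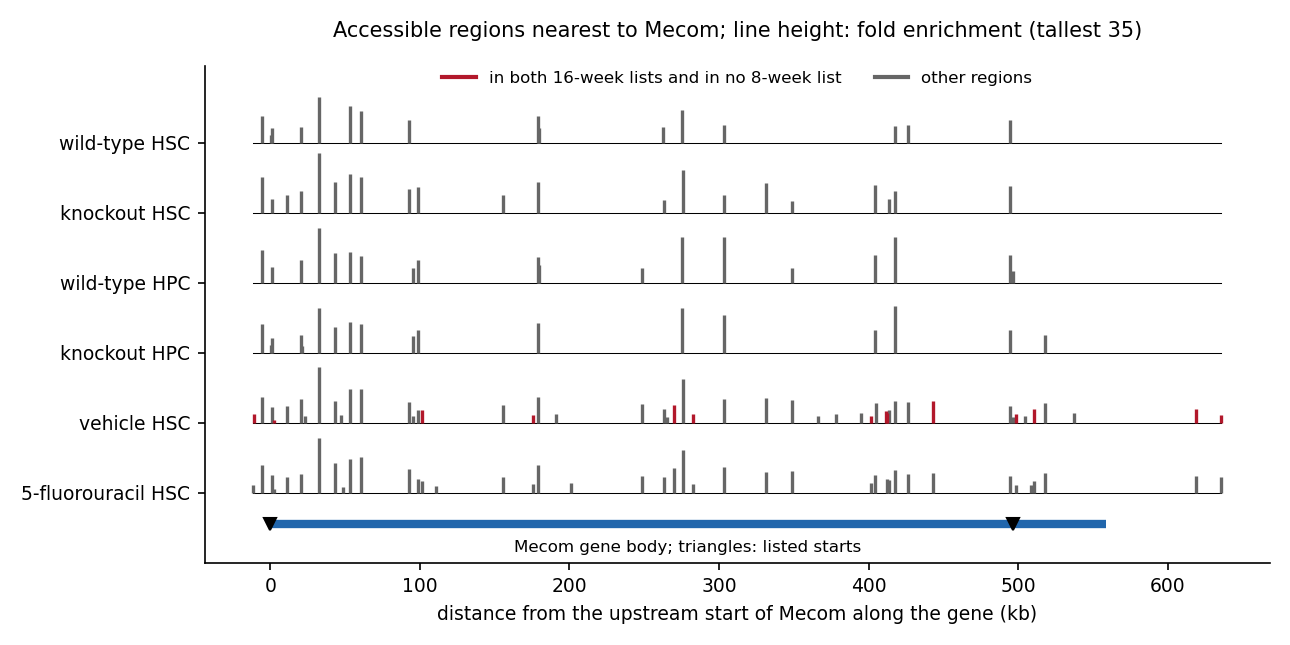
Accessible regions nearest to Mecom in each of the 6 lists, by distance in kb from the upstream start along the gene (horizontal axis). The height of a line is the authors' fold enrichment, and red lines in the vehicle track are the 14 regions in both 16-week lists and in no 8-week list, from 1.89 to 13.0 in height.

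Smaller loci had the regions packed more closely. Zfp217, a zinc finger protein of corepressor complexes, had 10 of 24 vehicle regions, against 6, 8, 13 and 8 regions in the 8-week lists and 21 after 5-fluorouracil. Between 170116524 and 170160657 on chromosome 2, in and beside that gene, 7 of 8 vehicle regions were 16-week-only. Their fold enrichments in vehicle ran from 3.86 to 11.2, the highest at chr2:170116524-170117408, which had 9.18 after 5-fluorouracil. This was the densest stretch of 50 kb. Zeb2, a zinc finger repressor with a role in HSC differentiation, had 9 of 21, beside 9, 7, 10 and 8 at 8 weeks. The Zeb2 regions ran from 3.68 to 10.7. With the weakest 25% of every list removed Zfp217 had 7 and Zeb2 6, and by the nearest gene end they still had 10 and 9.

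Stat3, the transcription factor downstream of interleukin-6 family receptors, had 6 of 11 vehicle regions, and all 6 were among the 8 vehicle regions between 100904497 and 100947875 on chromosome 11. The 8-week lists had 4, 5, 5 and 6 regions near Stat3. A neighbouring pair inside the gene, at chr11:100904497-100905171 and chr11:100905733-100906295, had 8.17 and 8.03 in vehicle and 10.7 and 9.82 after 5-fluorouracil. Another pair, outside the gene, stood at 8.11 and 5.46 in vehicle. Other stretches with 6 lay near Lemd1, of 8 vehicle regions, near Taf4, a subunit of the general transcription factor TFIID, also of 8, and near Sec63 and Scml4, of 9.

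Rora, the nuclear receptor that innate lymphoid cells of group 2 depend on, had 12 of 48 vehicle regions, beside 16, 21, 32 and 23 at 8 weeks. Its highest fold enrichments were inside the gene at chr9:68696405-68697090, with 14.6 in vehicle and 12.7 after 5-fluorouracil. A Rora start lay in another, chr9:68653172-68654284, with 13.0 and 11.1, which ranked higher by −log10 p in both lists, and the nearest 8-week region was 35143 bp away. Sox5, Pik3r1, the regulatory subunit of phosphoinositide 3-kinase, and Elmo1, a partner of Dock proteins in Rac activation, had 10 each. Gse1 had 11 of 75, a share of 14.7% and so near that of the whole list.

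The highest shares belonged to small loci. All 4 vehicle regions of Zic2, a zinc finger factor of the developing brain, were 16-week-only, and no 8-week list had a region near it. They were weak, from 3.66 to 5.73 in vehicle, and none was left once the weakest 25% of every list was removed. Strn, a scaffold of a phosphatase complex, had 5 of 6, with the highest vehicle fold enrichment at chr17:78708156-78708966 inside the gene, 21.4 in vehicle and 14.4 after 5-fluorouracil. Dll1, a Notch ligand, had 7 of 9, of which 2 lay inside it, and its highest fold enrichment in vehicle was 9.90, 66.9 kb away at chr17:15299720-15300427, with 8.72 after 5-fluorouracil. By −log10 p the region at chr17:15381603-15382224, 4.67 kb away, ranked highest in both lists. Btnl9, Cdca2 and Cep85 each had 3 of 4. With the weakest 25% of every list removed these had 0, 1 and 1, while Strn had 3 and Dll1 5. Counts this small carry wide counting error.

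Strong 16-week-only regions were rare, and the 10 strongest by the lower of their 2 ranks are described by their genes. The first lay inside Coro2b, a coronin that binds actin, at chr9:62420732-62421724. Its fold enrichment was 17.2 in vehicle and 18.1 after 5-fluorouracil, the 87.6th and 85.8th percentiles, and its nearest 8-week region was 4757 bp away. A second beside Coro2b, chr9:62407446-62408265, had 16.0 and 15.3. The next lay 12.6 kb from Dennd4a, with 9.79 and 10.1. Cd9, a tetraspanin of stem cells and megakaryocytes, had one inside the gene at chr6:125473309-125474136, with 11.4 in vehicle and 13.2 after 5-fluorouracil, or the 70.9th and 80.7th percentiles. Others lay near Msmb, with 16.3 and 17.0, near Kcnj1, a potassium channel, with 11.3 and 11.9, near Entpd3, with 7.76 and 8.23, and inside Tdrd9, a germline RNA helicase, with 10.8 and 11.0. The one inside Tex14, a germ cell gene, with 4.83 and 4.69, lay 121 bp from an 8-week region. The highest fold enrichment of all in vehicle, 26.2, with 23.7 after 5-fluorouracil, was at chr13:106691680-106692155, with no protein-coding gene within 100 kb.

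Gene lists by role were read against the 13.0% of all vehicle regions, and against the 15.5% of regions in both 16-week lists, overall and weighted to the vehicle strengths of the list's own regions. Most lists did not stand apart. Of 21 lists with 528 symbols, 4 symbols were not matched and 14 were in more than 1 list. The lists were drawn up with earlier results of these data known, so a list's share is a description. The alternative settings counted below reuse the same peak lists, so a share that stays high across them has no independent support from them.

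The list of stem cell identity and self-renewal genes had 107 16-week-only regions among 598 vehicle regions, 17.9% (15.0 to 21.2), and 29 of 44 genes had at least 1. Without Mecom the share was 16.9%. The regions of the list were weaker than most, with a median percentile of 43.9 in vehicle. Among regions in both 16-week lists the share was 21.4% (18.0 to 25.2), and all such regions weighted to the same strengths had 19.6%, inside that interval. At like strength the stem cell list was thus not distinguishable from other regions. Erg, an ETS factor, Meis1, a homeobox partner of Hox proteins, and Mllt3, a reader of acylated histones, had 7 each. Their vehicle and 8-week counts differ. Erg had 28 regions in vehicle and 15, 15, 24 and 21 at 8 weeks, while Meis1 had 30 and 11, 13, 15 and 12, and Mllt3 30 and 8, 10, 11 and 10. Kit, the stem cell factor receptor, had 4 of 19. Hoxb5, a homeobox gene used to mark long-term HSC, had 3 of 3, at 2.71 to 5.21 in vehicle, and 0 regions in every 8-week list. Tek, the angiopoietin receptor, had 2 of 3, Ly6a, the gene of the Sca-1 surface marker, 2 of 4, and Angpt1, a ligand of Tek, 5 of 19. The share stayed above that of all regions in 16 of 16 settings, but by as little as 0.82 percentage points. In lists of equal length it was 4.74% against 3.93%.

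Genes known to rise in aged HSC had 40 of 210, 19.0% (14.3 to 24.9), with 24 of 35 genes touched. Without Aldh1a1 the share was 17.6%. Among regions in both 16-week lists the share was 22.1% (16.7 to 28.7). All such regions at the strengths of this list had 15.1%, and the median percentile of the list was 50.3. Of the 21 lists, 1 interval lay above its weighted share, that of this list, and 1 lay below, that of mature B cell markers. With 21 lists read side by side, 1 interval on each side does not set a list apart from counting error. Mice of 16 weeks are young adults, so the list's name does not describe them. Aldh1a1, which makes retinoic acid, had 4 of 6, and the 8-week lists had 1, 2, 0 and 0 regions near it. The one of highest fold enrichment, at chr19:20467881-20468391, had 14.1 in vehicle and 16.2 after 5-fluorouracil, and the one inside the gene, chr19:20558708-20559385, had 11.86 and 12.01. Each of the 4 Aldh1a1 regions lay at least 14677 bp from any 8-week region. Wwtr1, a coactivator of the Hippo pathway also called TAZ, had 4 of 9, all inside the gene. The Wwtr1 region of highest vehicle fold enrichment, chr3:57470259-57471535, had 11.97 in vehicle and 4.22 after 5-fluorouracil, and the 4 ran from 6.17 to 11.97 in vehicle and from 4.15 to 5.15 after 5-fluorouracil. Cavin2, Gda, Fhl1, Amotl2, Runx1t1, Vwf, Itgb3, Mt1, Lpar6 and Cd9 had 2 each, and 12 genes had 1. In lists of equal length the share was 12.3%, or 13 of 106, against 3.93%, and it was above that of all regions in 16 of 16 settings.

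**Figure D4:**
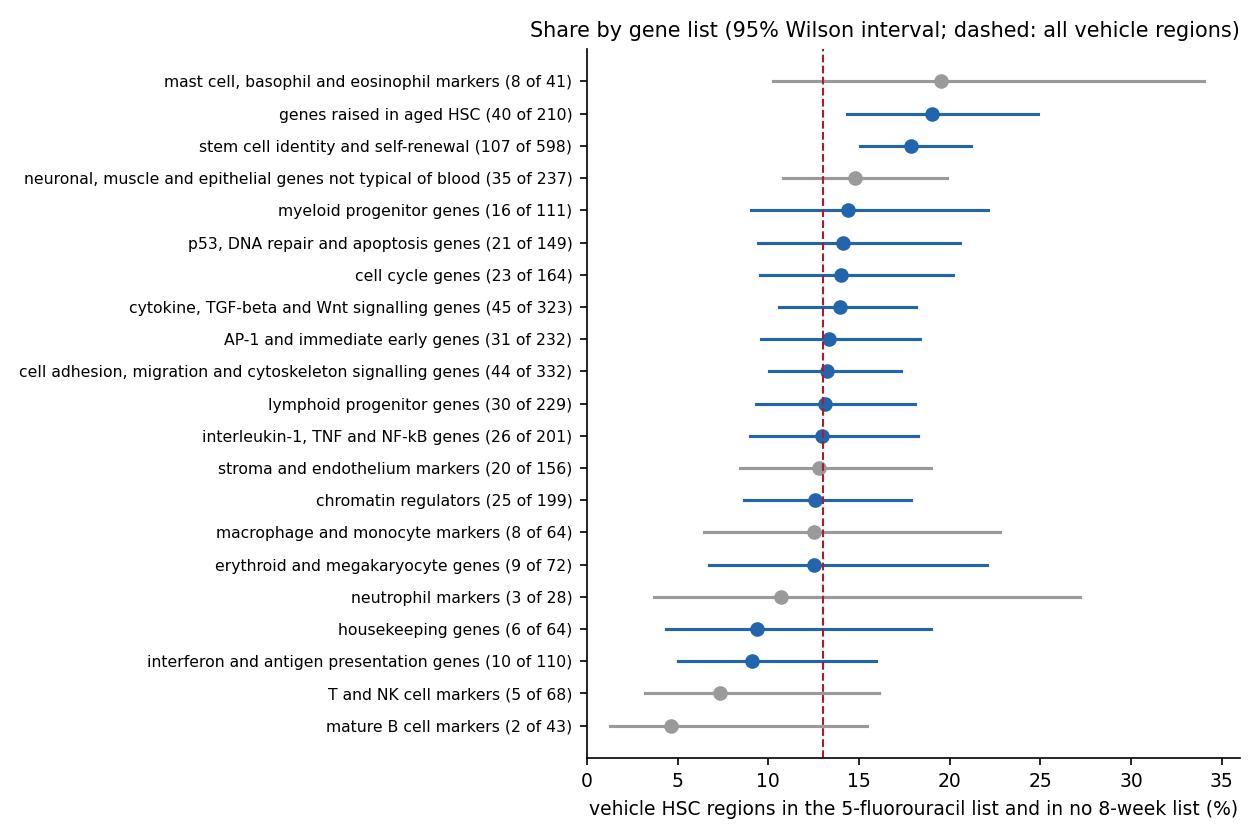
Share of vehicle HSC regions that are 16-week-only (percent, points, with 95% Wilson intervals as lines) for each gene list, with the number of 16-week-only regions and of vehicle regions in brackets. Blue, pathway and role lists; grey, marker lists of other cells; dashed line, the 13.0% of all vehicle regions, which lies below the intervals of the aged HSC and stem cell lists.

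The intervals of the other lists included 13.0%, and among regions in both 16-week lists they included 15.5%, so these shares were not distinguishable from the background at these counts. Lymphoid progenitor genes had 30 of 229, 13.1%, among which Tox, a regulator of T and innate lymphoid cell development, had 7 of 13. The Tox region of highest fold enrichment, chr4:6681548-6682474, had 14.3 in vehicle and 15.1 after 5-fluorouracil and lay 50751 bp from an 8-week region. Satb1, a chromatin organiser that lymphoid priming depends on, had 3 of 10 and Bcl11a 4 of 30. Myeloid progenitor genes had 16 of 111, 14.4%, with 2 each at Csf1r, Spi1 and Klf4. With the weakest 25% of every list removed, Csf1r, Spi1 and Klf4 had 0 each. Erythroid and megakaryocyte genes had 9 of 72, 12.5%, with 2 each at Car2, Vwf and Zfpm1.

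Signalling lists stood close to the background as well. Interferon and antigen presentation genes had 10 of 110, 9.09%, with Ifih1, a sensor of double-stranded RNA, at 3 of 9. Interleukin-1, TNF and NF-kB genes had 26 of 201, 12.9%, with 4 at Tnfaip3, the A20 brake on NF-kB, one of them reaching 15.2 in vehicle. AP-1 and immediate early genes had 31 of 232, 13.4%, with 5 of 14 at Jun and 6 of 40 at Bach2. Cytokine, TGF-beta and Wnt genes had 45 of 323, 13.9%, with Stat3 as above and Smad3, a TGF-beta effector, at 6 of 31. Adhesion and migration genes had 44 of 332, 13.3%, where Itga5, the fibronectin receptor subunit, had 5 of 11 and Itga6, a laminin receptor subunit, 5 of 18. Of this list, N-cadherin (Cdh2) had 3 of 3 and no region at 8 weeks.

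Growth and survival genes also stood near the background. Cell cycle genes had 23 of 164, 14.0%, with Cdk6, the kinase that lets HSC leave rest, at 5 of 20, and Rb1, the retinoblastoma protein, at 4 of 8. The highest fold enrichments near Cdk6, 13.4 and 12.7, were at chr5:3269770-3270303. The p53, repair and apoptosis genes had 21 of 149, 14.1%, and Bcl2, the survival factor, 8 of 23, beside 6, 11, 14 and 10 at 8 weeks. At Bcl2 the region of highest fold enrichment, chr1:106466491-106467222, had 10.6 in both lists. Removing the weakest 25% of every list left Bcl2 with 3 and Rb1 with 1. Chromatin regulators had 25 of 199, 12.6%, with Kdm5b, an H3 lysine 4 demethylase, at 3 of 6, and Kmt2c, the gene deleted in the knockout, at 1 of 6. Housekeeping genes had 6 of 64, 9.38%.

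Marker genes of other cells were looked up because the purity of the sorts is not given. T and NK cell markers had 5 of 68, 7.35%, mature B cell markers 2 of 43, 4.65%, neutrophil markers 3 of 28, 10.7%, and macrophage and monocyte markers 8 of 64, 12.5%. Stroma and endothelium markers had 20 of 156, 12.8%. Mast cell, basophil and eosinophil markers had the highest share, 8 of 41, 19.5%, with a wide interval of 10.2 to 34.0, and 2 of the 8 were near Gata2, which HSC also use, and 2 near Ms4a2, the beta chain of the IgE receptor. The share of this list, too, was above that of all regions in 16 of 16 settings, by at least 1.34 percentage points. Neuronal, muscle and epithelial genes had 35 of 237, 14.8%, with 8 at Cntnap2 and 6 at Rbfox1, both very long genes. At Rbfox1 none was left by the nearest gene end. This list was above all regions in 15 of 16 settings. Among regions in both 16-week lists the mast cell list had 21.1% (11.1 to 36.3) and the neuronal, muscle and epithelial list 20.8% (15.4 to 27.6), about as high as the stem cell and aged HSC lists. Weighted to the strengths of these lists, all such regions had 18.8% and 18.6%. At like strength the mature B cell interval, 6.25% (1.73 to 20.1), lay just below its weighted share of 20.4%. The 8-week and 16-week lists were not compared for cell make-up, and its part in these regions was not tested.

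Gene starts made up a small share of the regions. RefSeq lists the start and strand of 17491 of 21883 protein-coding genes, and 558 of 21262 listed starts, from 513 genes, lay in a 16-week-only region. Another start of the same gene lay in an 8-week list for 59 of the 513, which leaves 454 genes. A further 113 genes, whose strand is not listed, had 1 of their ends, either the start or the far end, in a 16-week-only region and neither in an 8-week list.

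By the lower of its 2 ranks, the strongest such start was that of Mylk3, the cardiac myosin light chain kinase, with fold enrichments of 7.54 in vehicle and 7.64 after 5-fluorouracil. Prdx2, a peroxiredoxin abundant in red cells, had 5.75 and 6.16. Cfap47, a protein of cilia and sperm tails on the X chromosome, had the highest fold enrichments of the 10 named, 20.3 and 18.0, and its nearest 8-week region was 932784 bp away. Il18bp, the soluble decoy that neutralises interleukin-18, had 9.50 and 9.14, and Tlr6, which pairs with Tlr2 to sense bacterial lipopeptides, 11.5 and 11.0. Ptk7, a pseudokinase of Wnt and planar polarity signalling, had 9.17 and 9.79, Ppp1r37 9.12 and 9.07, Tmem215 15.2 and 13.8, and Rbm33 7.63 and 7.23. The start of Rps26, a ribosomal protein gene, lay in a region of 6.62 and 7.68 that ended 117 bp from an 8-week region. Il1r2, the decoy receptor of interleukin-1, was also among the starts, with 7.83 and 8.54. Away from the starts, the 8-week lists held regions near some of these genes. There were 1, 1, 1 and 0 near Prdx2 and likewise near Il18bp, 4, 4, 5 and 5 near Rbm33, and 0 in each list near Cfap47. Ranking by the lower of 2 ranks favours starts that stand alike in both lists.

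The base composition of the starts was compared over the promoter from 250 bases before to 50 after the start. A CpG ratio (observed over expected from C and G content) above 0.6, as in CpG islands, was found for 62.2% (58.1 to 66.1) of the 558 starts. The share was 77.8% (77.0 to 78.6) for starts in regions of all 6 lists, 62.8% (60.7 to 64.8) for those in 1 to 3 8-week lists and 10.5% (9.87 to 11.2) for starts with no vehicle region. Over all listed starts it was 47.6%. The 16-week-only starts were thus mostly of the CpG-rich kind, as were those in 1 to 3 8-week lists.

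The ETS motif CCGGAAG, a site of factors such as Erg and Fli1, was less common at these starts than at starts in regions of all 6 lists. Other forms of ETS site were not searched. It stood in 6.45% (4.70 to 8.80) of the 558 promoters, against 20.5% (19.7 to 21.3) at the latter, 10.9% (9.66 to 12.3) at those in 1 to 3 8-week lists and 11.6% in all listed promoters. It was as low or lower in vehicle-only regions, 3.47% (1.69 to 6.98), in regions of vehicle and an 8-week list but not 5-fluorouracil, 5.41% (2.50 to 11.3), and at starts with no vehicle region, 2.70% (2.38 to 3.06), so a low share is not particular to the 16-week-only starts. The CCAAT box was in 31.5% (27.8 to 35.5), against 40.8% (39.8 to 41.8) in all 6 lists and 38.2% in all promoters, but it was lower still in 1 to 3 8-week lists, 27.1% (25.3 to 29.0), and stood at 32.7% in vehicle-only regions. The CTCF core was in 19.9% (16.8 to 23.4), against 17.1% in all 6 lists and 12.9% in all promoters, and the GC box in 63.6% (59.5 to 67.5), against 68.4% and 46.2%. In 1 to 3 8-week lists these were 17.7% and 63.5%. Strength differs between these classes and starts were not matched on it. RUNX stood in 10.6% against 12.03% and 15.0%, GATA in 6.45% against 5.19% and 9.65%, AP-1 in 6.63% against 4.16% and 6.99%, and IRF in 8.06% against 6.55% and 8.14%. E-box shares were 17.2%, 13.9% and 15.6%, NRF1 shares 3.94%, 5.75% and 3.51%, and CRE shares 2.15%, 3.56% and 2.23%. None of the promoters printed above held the ETS letters, but these are a chosen few. The promoter of Rps26, not printed, held 1 ETS match.

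**Figure D5:**
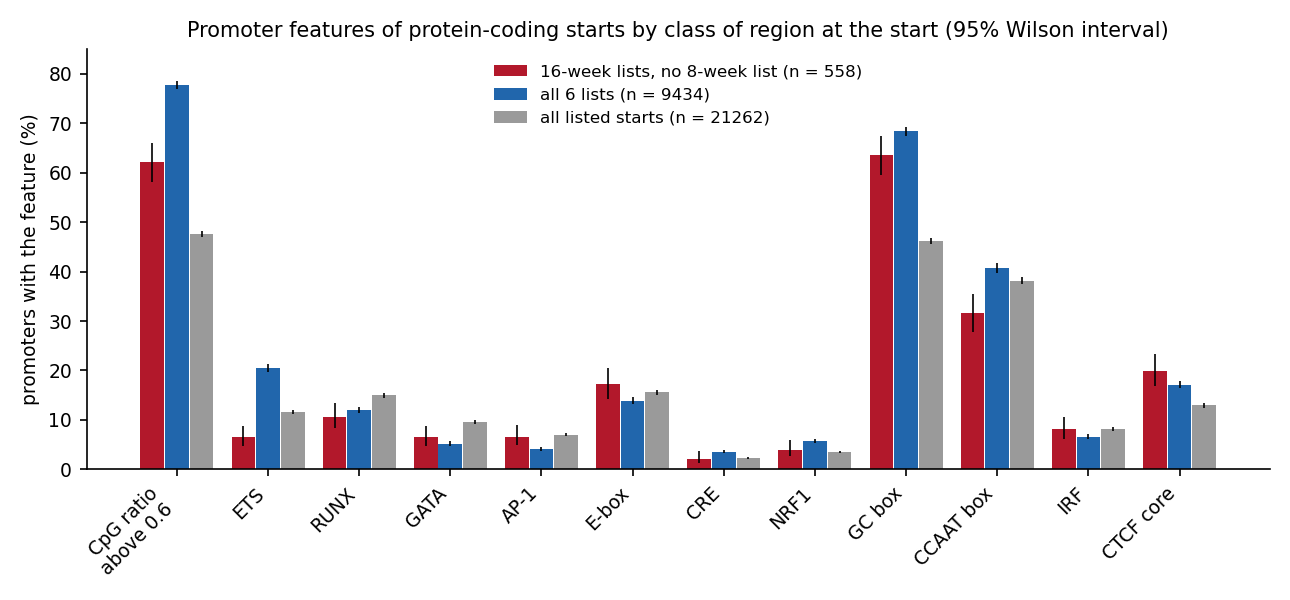
Percent of promoters (vertical axis, with 95% Wilson intervals) with a CpG ratio above 0.6 or with each motif, for starts in 16-week-only regions (red, 558), in regions of all 6 lists (blue, 9434) and for all listed starts (grey, 21262). The ETS motif is at 6.45% in red and 20.5% in blue.

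Genes of developmental transcription factor and Wnt families were among them. The families were chosen after the starts had been seen, so the counts describe the choice and support nothing. A start of 18 of 143 such genes lay in a 16-week-only region, 12.6%, against 513 of 17491 genes with a listed start, 2.93%. Other classes with weaker regions held these families at a higher share than all genes too. In 1 to 3 8-week lists the shares were 20.3% and 11.2%, and in vehicle-only regions 4.20% and 1.09%. In regions of vehicle and an 8-week list but not 5-fluorouracil they were 2.80% and 0.61%. The families are thus not particular to the 16-week-only regions. The families were Hox, Pax, Zic, Lhx, Tbx, Nkx, Irx, Dlx, Msx, Sox, Fox, Gata, Pou, Wnt and that of Six2. Msx3, a homeobox gene of the neural tube, stood highest by the lower of its 2 ranks, with fold enrichments of 11.2 in vehicle and 11.0 after 5-fluorouracil. Sox6, which silences embryonic globin genes, had 15.6 in vehicle and 7.51 after 5-fluorouracil. The others with no start in an 8-week list were Foxa1, Foxc1, Foxl2, Gata1, Gata5, Hoxd13, Hoxd9, Irx3, Six2, Six4, Tbx22, Wnt1, Wnt5b and Zic5, all between 3.31 and 7.86 in vehicle. Gata2 and Foxp1 had another start in an 8-week list. The region at the Zic5 start, chr14:122463070-122465863, was 2794 bp wide, the widest of all 10377.

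MicroRNA hairpins in 16-week-only regions numbered 11 of the 1005 that RefSeq lists, whose expression was not measured here. They were 8.87% (5.03 to 15.2) of the 124 hairpins in vehicle regions, an interval that includes the 13.0% of all regions. The pair Mir132 and Mir212 lay in 1 region, chr11:75173063-75173818, with fold enrichments of 3.44 in vehicle and 3.28 after 5-fluorouracil. The pair is known to act in HSC maintenance. The mature 3p forms are printed with the seed, bases 2 to 8, in capitals, because the 2 share it.
mmu-miR-132-3p (chr11:75173723-75173744, plus strand): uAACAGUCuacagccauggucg
mmu-miR-212-3p (chr11:75173443-75173464, plus strand): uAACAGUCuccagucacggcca
Mir9-2 lay in a region of 4.54 and 5.79, together with a hairpin on the opposite strand, Gm51268. Mir128-2 had 7.86 in vehicle and 4.08 after 5-fluorouracil, and Mir1895 had 7.35 and 8.95. The other hairpins were Mir1894, Mir6973a, Mir7045, Mir7232 and Mir7660. Regions in all 6 lists held 67 hairpins and those in 1 to 3 8-week lists 44.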

How the data were processed

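ATAC-seq was carried out on 18 mouse samples in 6 groups, and all samples of a group name 1 pooled peak list. Per the submitters' processing notes, reads were aligned with Bowtie2 and peaks called with MACS2 on mm10 (GRCm38). Not given in the sources used here are the versions, the filters, the depth per sample and the way samples were pooled. The deposited fold enrichment is a ratio of summit signal to local background, made by the authors' peak caller. The deposited −log10 p, also from the authors' peak caller, grows with depth and was used only as a rank within a list. The deposited score, a display value of the authors' peak caller, was not used further.

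Overlapping peaks of a list were merged into regions, and presence in another list meant an overlap of at least 1 bp. A region took the highest fold enrichment and, separately, the highest −log10 p of its peaks, which favours regions of many peaks. Regions in all 6 lists held a mean of 2.41 vehicle peaks and 16-week-only regions 1.85. Shares carry 95% Wilson intervals. For gene ends, gene bodies and chromosome X, the weighted shares give the comparison regions the same spread over steps of vehicle strength as the 16-week-only regions. For gene lists, all regions of both 16-week lists were weighted to the vehicle strengths of the list's own regions. Interval functions were tested on simulated regions. Python 3.11.15, pandas 2.3.3 and scipy 1.17.1 were used. No list of artifact-prone regions was used, and signal tracks were not analysed here.

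Coordinates are counted from 1. Gene names come from RefSeq (GRCm38.p6), which has 21883 protein-coding genes here. Starts and strands were listed for 79.9% of them, so regions were given to the closest gene body, up to 100 kb away, and not to the closest start as planned. Named genes were the 12 with most 16-week-only regions, the 6 with the highest share of them among genes with at least 4 vehicle regions and 2 such regions, those nearest to the 10 strongest, the 10 strongest starts of genes with no start in an 8-week list, and up to 3 of each gene list. Other genes of the lists were named after their values were seen. No region of chromosome Y was named. The regions, gene lists and named-gene rule were chosen with earlier results of these data known, and the developmental families, the weighting of gene lists by strength and 1 alternative after seeing the values reported here. Alternatives are given in the closing section.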

Additional observations from a re-analysis of the deposited data

How the results depend on the processing

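No paired analysis was possible because each group has 1 pooled list, and for the same reason no replicate could be left out. Each alternative changed 1 choice. The values in order are the number of 16-week-only regions, their share of the vehicle list, the share at a gene end and the share within 1 kb of an 8-week region, which were 10377, 13.0%, 11.8% and 17.1%. Windows of 200 bp around summits in place of merged regions gave 37677, 24.3%, 25.6% and 61.9%. Merging peaks within 150 bp gave 12.5%, 10.6% and 13.2% for the 3 shares. Requiring no 8-week region within 1 kb gave 10.7%, 9.36% and 0%, with a median vehicle percentile of 25.7. Removing the weakest 25% of every list gave 9237 regions, 15.4%, 16.7% and 11.7%. Removing it from the 16-week lists alone gave 3218 regions and 5.36%. Equal lists of 40073 regions gave 1573, 3.93%, 23.3% and 12.8%. Counted in the 5-fluorouracil list, the regions were 14.8% of it, 17.9% of them within 1 kb. Asking for absence from the HSC lists alone gave 19222, 24.0% and 55.2% within 1 kb, and from wild-type HSC alone 29115, 36.3%, 13.0% and 70.4%. Leaving out the wild-type HSC list gave 13.8% and 22.2% within 1 kb, knockout HSC 16.1% and 33.2%, and knockout HPC 13.9% and 22.4%. Without wild-type HPC the 3 shares were 17.9%, 12.9% and 39.9%. An added alternative, in which the 5-fluorouracil region too had to miss the 8-week lists, gave 15.9% within 1 kb. Ranking by fold enrichment gave a median percentile of 27.1 in place of 25.1. Gene ends taken as 500 bp or 5 kb gave 8.58% and 25.9%. An overlap of 50% in place of 1 bp changed none of these by more than its interval. Counts per gene moved by more than 1.5 times for 15 of 94 named genes by the nearest gene end and for 46 with the weakest 25% of every list removed. The number of regions thus varied with how regions were drawn, which 8-week lists had to lack them and how the lists were cut. Read depth was not given, and its part in the number was not tested.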

Other observations

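More sites of both 16-week lists were shared with progenitors alone than with 8-week HSC alone. Of the regions in both 16-week lists, 4186 were in both HPC lists and in neither 8-week HSC list, and 1731 were in both 8-week HSC lists and in neither HPC list. The wild-type HPC list pooled 4 samples and held 65832 regions, and the wild-type HSC list pooled 2 and held 40073.

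Starts of noncoding genes in 16-week-only regions numbered 190 of 11589 listed by RefSeq, beside 558 of 21262 starts of protein-coding genes. Noncoding starts in all vehicle regions were not counted, so the 190 cannot be set against the 13.0% of all vehicle regions. Further stretches of 50 kb with 5 such regions lay near Uggt1, a folding sensor of the endoplasmic reticulum, with 5 of 8 vehicle regions, near Mob4 and Rftn2, with 5 of 6, and near Exoc3l4 and Tnfaip2, with 5 of 9. Another, near the leukotriene receptor gene Ltb4r2, Adcy4 and Ripk3, the kinase of necroptosis, had 5 of 9, as did one near Mpzl1 and Rcsd1.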
